A study of Mus musculus with 9 samples.

Results

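The genes followed here are 10 genes that mark the choroid plexus epithelium, taken by symbol from a table of 22482 genes in mouse brain tissue: Ttr, Kl, Folr1, Clic6, Enpp2, Aqp1, Slc4a5, Otx2, F5 and Prlr. All 10 were found, and 7 of them reached 0.5 FPKM in at least 3 of the 9 libraries and so entered the tests; Slc4a5, F5 and Prlr did not. FPKM counts fragments per length of transcript and per total of fragments, so levels can be set side by side between genes. The tissue came from 3 groups of 3 libraries each. In Sham animals the skull was drilled and the dura opened over an undamaged brain, in TBI animals a falling weight injured the brain, and C-β-LG/DSF animals, the treated group, had the same injury followed by this nanoparticle preparation through a tail vein. Each piece was cut at the injury or at the matching place in Sham. Strain, age, dose and time after injury are not stated in the labels, and nothing tells if each library is its own animal, so p-values measure the spread between these samples, which may be technical.

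The choroid plexus is a folded epithelium inside the brain ventricles that secretes cerebrospinal fluid. Its cells carry ions and water from blood to fluid through bicarbonate transporters, chloride channels and water channels, pass vitamins and hormones across, and release carrier proteins and enzymes into the fluid. Ttr is its most abundant product, and the transcription factor Otx2 is needed for its formation and upkeep in mice. Several of these genes are not exclusive to it: Enpp2 is also made by oligodendrocytes, Otx2 by some neurons of the thalamus and midbrain, and Aqp1 by endothelial and red cells outside the brain.

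The FPKM totals of the libraries ran from 406274 to 445404, with 12566 to 13312 genes at 1 FPKM or more; the number of fragments is not given. The pieces differed in their marker genes. Summed over 12 markers of thalamic neurons, the FPKM ran from 38.7 to 42.4 in Sham, was 53.2, 68.2 and 278 in TBI 1, 2 and 3, and was 64.4, 200.4 and 138 in C-β-LG/DSF 1, 2 and 3. Over 12 markers of oligodendrocytes it was 1815 to 3396 in Sham, 3064, 3110 and 9840 in TBI 1, 2 and 3, and 2463, 5170 and 4991 in C-β-LG/DSF 1, 2 and 3. The libraries highest in thalamic markers were TBI 3 and C-β-LG/DSF 2 and 3. TBI 3 was highest in both lists, so differences of tested members between TBI and Sham that rest on it are given with and without it.

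Ttr, which encodes transthyretin, the carrier of thyroxine and of retinol-binding protein in cerebrospinal fluid, was low in most libraries and very high in TBI 3. The gene lies on chromosome 18 (20665250 to 20674324 in the authors' table). It stood at 0.0655, 1.14 and 7.40 FPKM in Sham 1, 2 and 3, at 37.0, 0.130 and 270 FPKM in TBI 1, 2 and 3, and at 1.48, 1.53 and 1.06 FPKM in C-β-LG/DSF 1, 2 and 3. TBI 2 thus lay within the Sham range while TBI 1 and TBI 3 lay above it, and TBI 3 exceeded TBI 2 by 2075 times. In 6 of the 9 libraries Ttr was under 2 FPKM, and in those same 6 the authors' interval around the value included 0. The interval of TBI 3 (160 to 380 FPKM) lay above those of the 8 other libraries, the next being TBI 1 (20.4 to 53.5 FPKM). The defining product of the epithelium was thus near the floor in most of these pieces, and which cells gave the levels of the other 9 genes there was not tested.

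The Sham mean of Ttr was 2.87 ± 3.96 FPKM (SD, n = 3). Its TBI mean was 102 ± 146 FPKM (SD, n = 3), and its mean in the treated group was 1.36 ± 0.261 FPKM (SD, n = 3). On the scale of log2(FPKM + 0.5), which understates differences of low genes, TBI minus Sham was 3.25 (95% interval -0.89 to 7.40) and did not pass limma's moderated test with Benjamini-Hochberg adjustment over 14292 genes (adjusted p = 0.225). Without TBI 3 the difference was 1.32, and without TBI 2 it was 5.69 and passed (adjusted p = 0.00905); over the 17 alternatives tried the adjusted p ran from 0.00905 to 0.615. C-β-LG/DSF minus TBI was -3.33 (95% interval -7.47 to 0.81, adjusted p = 0.484), and -1.40 without TBI 3. C-β-LG/DSF minus Sham was -0.07 (95% interval -4.22 to 4.07, adjusted p = 0.985), an interval several log2 units wide on either side. In these bulk pieces more cells of a type and more RNA per cell cannot be told apart.

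**Figure D1:**
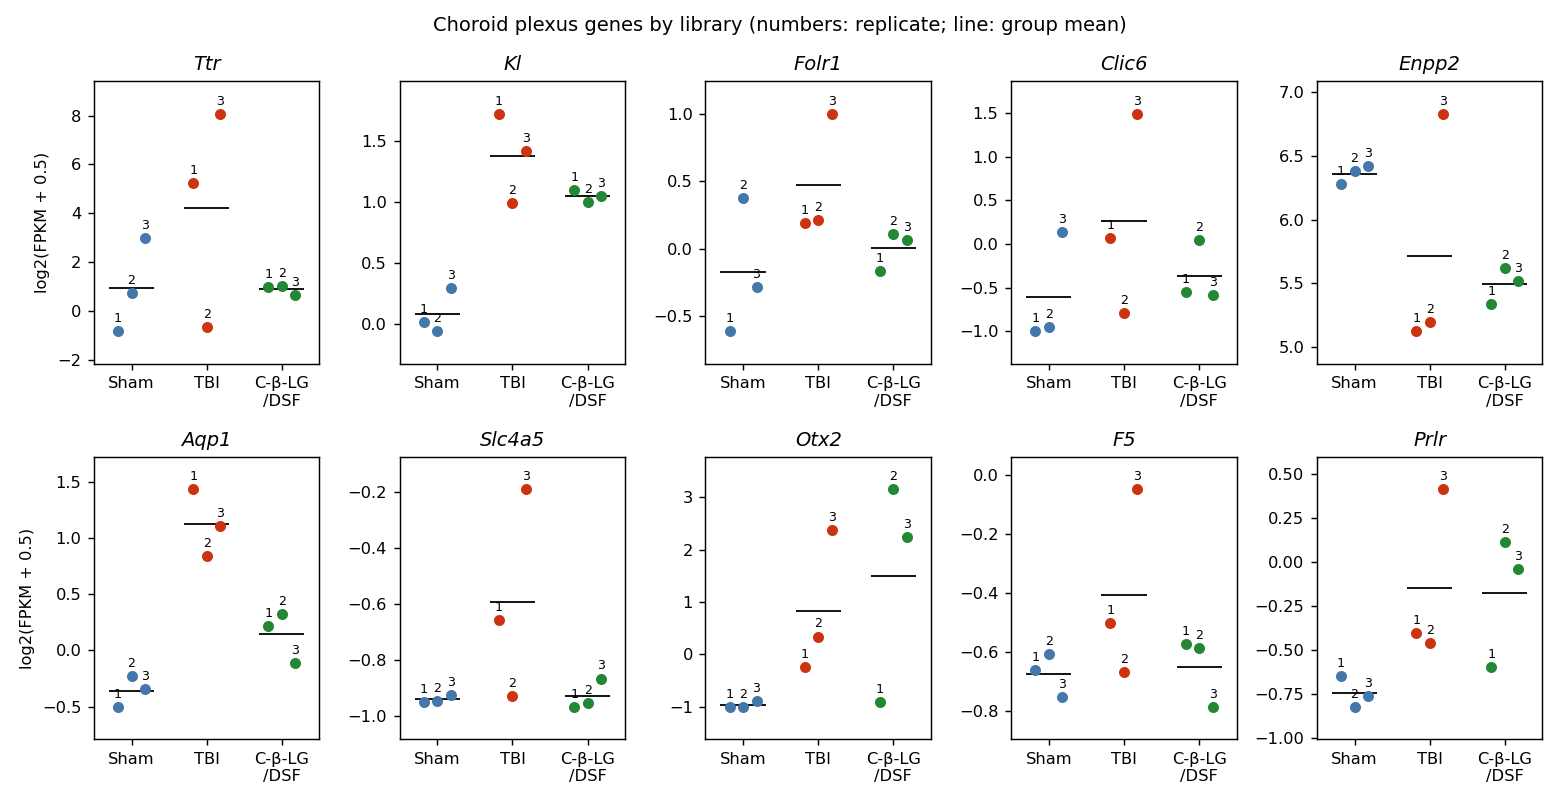
Level of each of the 10 choroid plexus genes in each library, as log2(FPKM + 0.5) on its own vertical axis, with points numbered by replicate and a line at the group mean. Ttr, Folr1, Clic6, Enpp2, Slc4a5, F5 and Prlr are highest in TBI 3, whereas Kl and Aqp1 are higher in all 3 TBI libraries than in all 3 Sham libraries.

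TBI 3 was the library with the highest value for 7 of the 10 genes, 4 of them among the 7 tested, against 12.6% of all 14292 tested genes. This was not particular to these genes. TBI 3 was also highest for 12 of 12 oligodendrocyte, 12 of 14 ependymal and 10 of 12 thalamic markers. It was highest for 2 of 8 endothelial markers and for 0 of 12 leptomeningeal, 0 of 8 astrocyte and 0 of 10 microglia and macrophage markers. When the FPKM in TBI 3 was divided by the highest FPKM elsewhere, with 0.5 FPKM as the least divisor, Ttr came at rank 1 of those 14292 genes (7.31 times) and Clic6 at rank 3 (3.88 times). Folr1 followed at rank 70 (1.87 times) and Enpp2 at rank 316 (1.33 times). TBI 3 was picked out after the values had been seen, so these ranks describe that library and were not tested.

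Clic6 belongs to the chloride intracellular channel family and lies on chromosome 16 (92485736 to 92541243). It was listed at 0 in Sham 1, at 0.0173 FPKM in Sham 2 and at 0.598 FPKM in Sham 3. In TBI 1, 2 and 3 it stood at 0.550, 0.0784 and 2.32 FPKM, and in C-β-LG/DSF 1, 2 and 3 at 0.180, 0.531 and 0.164 FPKM. The groups overlapped, and only in TBI 3 did the authors' interval (0.498 to 4.14 FPKM) exclude 0. TBI minus Sham was 0.86 on the log2 scale (95% interval -0.36 to 2.09, limma adjusted p = 0.275), and 0.25 without TBI 3. The 3 libraries highest in Clic6 were TBI 3, Sham 3 and TBI 1, which were also the 3 highest in Ttr, though C-β-LG/DSF 2 came close to TBI 1 in Clic6 with a low Ttr. The ratio of Ttr to Clic6 FPKM was 12.4 in Sham 3, 67.2 in TBI 1 and 116 in TBI 3. Since the Clic6 interval included 0 in Sham 3 and TBI 1, these ratios are uncertain, and whether they differ was not tested.

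Folr1 encodes the folate receptor that carries folate into cerebrospinal fluid. It stood at 0.156, 0.801 and 0.322 FPKM in Sham 1, 2 and 3, at 0.643, 0.662 and 1.502 FPKM in TBI 1, 2 and 3, and at 0.394, 0.580 and 0.546 FPKM in C-β-LG/DSF 1, 2 and 3. All TBI libraries were above all C-β-LG/DSF libraries, and both overlapped Sham. TBI minus Sham was 0.64 (95% interval -0.05 to 1.33, limma adjusted p = 0.157) and C-β-LG/DSF minus TBI was -0.47 (95% interval -1.16 to 0.23, limma adjusted p = 0.530), both on the log2 scale. Without TBI 3 these differences were 0.37 and -0.20. The authors' interval included 0 in all 9 libraries. The authors' table gives Folr1 a span on chromosome 7 from 101858331 to 101933868, whereas GENCODE M21 ends the gene at 101870788, and GENCODE has Anapc15 overlapping it, so its values are uncertain.

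Slc4a5 encodes a sodium bicarbonate cotransporter of the epithelium. It was low in all libraries, highest in TBI 3 (0.376 FPKM) and TBI 1 (0.135 FPKM), and the other 7 lay between 0.0119 and 0.0489 FPKM. F5, which encodes coagulation factor V, was at 0.468 FPKM in TBI 3 and between 0.0800 and 0.206 FPKM in the other 8 libraries. Prlr, the prolactin receptor, was at 0.138, 0.0652 and 0.0894 FPKM in Sham 1, 2 and 3, at 0.256, 0.227 and 0.830 FPKM in TBI 1, 2 and 3, and at 0.160, 0.579 and 0.472 FPKM in C-β-LG/DSF 1, 2 and 3. Its injured libraries all lay above its Sham libraries, by little in TBI 1, TBI 2 and C-β-LG/DSF 1. The authors' interval included 0 in all 9 libraries for Slc4a5 and for Prlr, and in 8 for F5. In an exact two-sided permutation test of TBI against Sham the p was 0.2 for Slc4a5, 0.3 for F5 and 0.1 for Prlr, where 0.1 is the smallest that 3 libraries against 3 allow. With no filter on low values limma gave these genes an adjusted p of 0.161, 0.252 and 0.143.

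**Figure D2:**
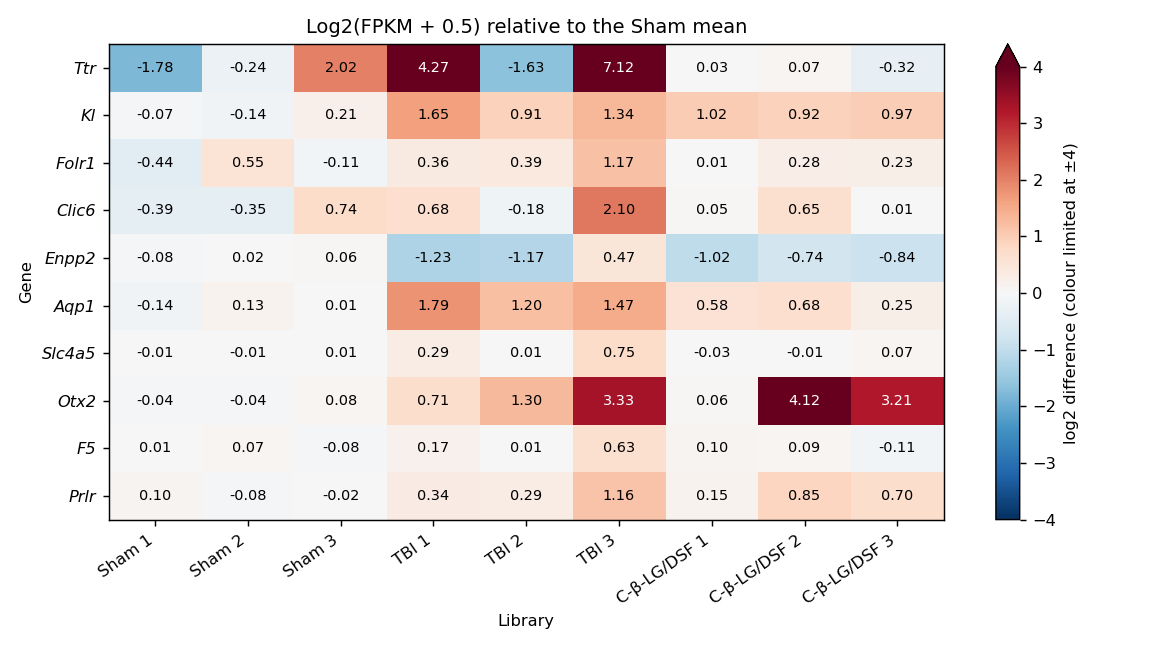
Difference of each gene in each library from its Sham mean, in log2(FPKM + 0.5), as colour and number. TBI 3 is raised in all 10 genes, Ttr most (7.12); TBI 2 is near or below the Sham mean for Ttr (-1.63) and Clic6 (-0.18); Otx2 is high in TBI 3 and in replicates 2 and 3 of C-β-LG/DSF.

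Kl and Aqp1 rose in TBI against Sham in every TBI library, TBI 2 included. These were the 2 called of the 7 tested members, both higher, where 14.9% of all genes were called higher and 26.8% in either direction. Aqp1 and Otx2 reached 0.5 FPKM in no Sham library and entered the tests through injured libraries alone. The 7 therefore lean toward members high after injury, and the count is a description. Kl encodes klotho, which forms the receptor for the hormone FGF23 with an FGF receptor and is also shed into cerebrospinal fluid. It lies on chromosome 5 (150952607 to 150993817) and stood at 0.510, 0.458 and 0.725 FPKM in Sham 1, 2 and 3. In TBI 1, 2 and 3 it was at 2.81, 1.49 and 2.17 FPKM, and in C-β-LG/DSF 1, 2 and 3 at 1.64, 1.501 and 1.58 FPKM. Every injured library, treated or not, lay above every Sham library.

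Kl averaged 0.564 ± 0.142 FPKM (SD, n = 3) in Sham. The TBI mean was 2.16 ± 0.661 FPKM (SD, n = 3), higher by 1.30 on the log2 scale (SE 0.21, limma adjusted p = 0.00287). That call held in all 17 alternatives, with adjusted p from 0.00231 to 0.0177. The treated group averaged 1.57 ± 0.0707 FPKM (SD, n = 3) for Kl, which was higher than Sham by 0.97 (SE 0.21, limma adjusted p = 0.0168). It was the only called member of the 7 in that comparison, where 6.37% of all genes were called higher, 6.88% lower and 13.3% in either direction. The call ended without Sham 1 (adjusted p = 0.0636), without Sham 2 (0.0619), without C-β-LG/DSF 3 (0.0671), after quantile normalization (0.0578) and without the 3 libraries rich in thalamic markers (0.188), and the adjusted p over its 17 alternatives ran from 0.00523 to 0.188. C-β-LG/DSF minus TBI was -0.33 for Kl (95% interval -0.79 to 0.14, limma adjusted p = 0.513).

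Aqp1, the water channel of the epithelium's ventricular face, lies on chromosome 6 (55336432 to 55348555). It stood at 0.206, 0.354 and 0.288 FPKM in Sham 1, 2 and 3, at 2.204, 1.30 and 1.66 FPKM in TBI 1, 2 and 3, and at 0.665, 0.751 and 0.427 FPKM in C-β-LG/DSF 1, 2 and 3. The 3 groups did not overlap: Sham was lowest, C-β-LG/DSF between and TBI highest. The Sham mean of Aqp1 was 0.283 ± 0.0740 FPKM (SD, n = 3). In TBI it rose to a mean of 1.72 ± 0.457 FPKM (SD, n = 3), higher by 1.49 on the log2 scale (SE 0.21, limma adjusted p = 0.00203), and its adjusted p over 17 alternatives ran from 0.00185 to 0.0119. The size was 1.07 with a pseudocount of 1 and 2.24 with 0.1.

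C-β-LG/DSF averaged 0.614 ± 0.168 FPKM (SD, n = 3) for Aqp1. Against TBI the log2 difference was -0.99 (95% interval -1.47 to -0.51), which did not pass over all genes (limma adjusted p = 0.394; unadjusted p = 0.00114). Against Sham it was 0.50 (95% interval 0.02 to 0.98, limma adjusted p = 0.151). The authors' interval excluded 0 only in TBI 1 and TBI 3. Beside Aqp1, the mean of 8 brain endothelial markers, on the log2 scale relative to Sham, was 0.65, 0.01 and 0.47 in TBI 1, 2 and 3, and 0.05, 0.42 and 0.00 in C-β-LG/DSF 1, 2 and 3. The mean of 4 red cell markers was 0.69, 3.15 and 2.35 in TBI 1, 2 and 3, and 0.66, 1.68 and 1.30 in C-β-LG/DSF 1, 2 and 3; it was highest in TBI 2, the TBI library lowest in Aqp1. In TBI 1, 2 and 3 that of 8 astrocyte markers was 1.40, 1.19 and 1.02, and that of 9 markers of microglia and macrophages 2.62, 2.33 and 1.80. In C-β-LG/DSF the astrocyte mean ran from 0.80 to 0.92 and the microglia and macrophage mean from 1.01 to 1.58. Their part in the Aqp1 result was not tested.

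The 250 bases before the RefSeq start of Kl and Aqp1, the called members, and of the Otx2 start whose window holds an Otx2 core are shown 5′ to 3′ from the RefSeq promoter table of build GRCm38.p6, with motif matches in capitals. The windows are chr5:150952357-150952606 on the plus strand for Kl, chr6:55336049-55336298 on the plus strand for Aqp1 and chr14:48665110-48665359 on the minus strand for Otx2. The Aqp1 window ends short of the gene start at 55336432 given above. The bases just after that window were not found in a GENCODE M21 transcript of Aqp1.
Kl: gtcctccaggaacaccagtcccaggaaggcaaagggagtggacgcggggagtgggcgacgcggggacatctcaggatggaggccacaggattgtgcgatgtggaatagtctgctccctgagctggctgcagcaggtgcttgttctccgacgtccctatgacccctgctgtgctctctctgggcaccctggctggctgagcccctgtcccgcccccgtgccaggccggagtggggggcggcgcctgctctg
Aqp1: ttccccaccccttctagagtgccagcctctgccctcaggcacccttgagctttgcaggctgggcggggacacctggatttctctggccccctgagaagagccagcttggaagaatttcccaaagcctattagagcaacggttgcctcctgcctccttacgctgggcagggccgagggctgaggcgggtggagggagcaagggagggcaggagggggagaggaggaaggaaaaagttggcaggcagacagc
Otx2: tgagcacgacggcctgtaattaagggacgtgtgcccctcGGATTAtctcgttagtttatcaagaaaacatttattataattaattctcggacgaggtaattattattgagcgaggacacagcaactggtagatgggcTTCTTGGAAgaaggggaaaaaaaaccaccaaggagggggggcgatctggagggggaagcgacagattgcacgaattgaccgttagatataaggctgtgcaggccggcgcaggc
These motifs were searched on both strands: the OTX2 core TAATCC, the AP-1 site TGANTCA, the STAT site TTCNNNGAA and the TATA box TATAAA. Of 32851 promoter windows of the same length, 6.25% held the OTX2 core, 6.75% the AP-1 site, 7.02% the STAT site and 12.4% the TATA box. The windows of Kl and Aqp1 held none of these letters. This Otx2 window held the OTX2 core on the opposite strand (GGATTA) and a STAT match (TTCTTGGAA). RefSeq windows were matched by symbol for 6 of the 10 genes, with 11 windows in all, of which 4 were of Otx2. The other 3 windows of Otx2 held no OTX2 core, nor did those of F5, Slc4a5 and Prlr.

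Otx2, the transcription factor, was highest in the 3 libraries with the highest thalamic sums. It lies on chromosome 14 (48657677 to 48673819). It was listed at 0 in Sham 1 and Sham 2 and at 0.0418 FPKM in Sham 3, and stood at 0.342, 0.769 and 4.68 FPKM in TBI 1, 2 and 3. In C-β-LG/DSF 1, 2 and 3 it was at 0.0357, 8.41 and 4.24 FPKM. The highest Otx2 value of all was thus in C-β-LG/DSF 2, where Ttr was at 1.53 FPKM. All TBI libraries lay above all Sham libraries, and C-β-LG/DSF overlapped both. The authors' interval excluded 0 only in TBI 3 and C-β-LG/DSF 2 and 3, so it included 0 in TBI 1 and TBI 2 as in Sham.

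The log2 difference of Otx2 was 1.78 for TBI minus Sham (95% interval -0.40 to 3.97, limma adjusted p = 0.207), and 1.01 without TBI 3 (limma adjusted p = 0.459). It was 2.46 for C-β-LG/DSF minus Sham (95% interval 0.28 to 4.64, limma adjusted p = 0.125), and 3.66 without C-β-LG/DSF 1, where it passed (adjusted p = 0.0136; range over 15 alternatives 0.0136 to 0.336). On the log2 scale relative to Sham, Otx2 minus the mean of the 12 thalamic markers was 0.44, 0.77 and 0.85 in TBI 1, 2 and 3 and -0.35, 2.09 and 1.74 in C-β-LG/DSF 1, 2 and 3. The mean of that value was 0.69 ± 0.215 (SD, n = 3) in TBI and 0.00 ± 0.139 (SD, n = 3) in Sham, with no overlap (exact two-sided permutation p = 0.1, the smallest possible; adjusted p = 0.2 over 6 such tests). Since Otx2 was at or near 0 in Sham, the sizes depend on the pseudocount: this difference was 0.25 with a pseudocount of 1 and 2.17 with 0.1. Otx2 itself, TBI minus Sham, was 1.23 and 3.45 with those pseudocounts.

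Enpp2 encodes autotaxin, the secreted enzyme that makes lysophosphatidic acid, and had the highest FPKM of the 10 genes in every library except TBI 1 and TBI 3, where Ttr was higher. It lies on chromosome 15 (54838901 to 54952892). It stood at 77.1, 83.0 and 85.1 FPKM in Sham 1, 2 and 3, at 34.4, 36.1 and 113 FPKM in TBI 1, 2 and 3, and at 40.0, 48.8 and 45.3 FPKM in C-β-LG/DSF 1, 2 and 3. Every injured library except TBI 3 lay below every Sham library. TBI minus Sham was -0.64 on the log2 scale (95% interval -1.49 to 0.20, limma adjusted p = 0.238). Without TBI 3 it fell by 1.20 and passed (limma adjusted p = 0.000229), and over 17 alternatives the adjusted p ran from 0.000229 to 0.562.

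The treated group averaged 44.7 ± 4.43 FPKM (SD, n = 3) for Enpp2, where Sham averaged 81.7 ± 4.17 FPKM (SD, n = 3), and the log2 difference was -0.87 (95% interval -1.71 to -0.02, limma adjusted p = 0.158). It passed when TBI 3 was left out of the shared estimate of spread (adjusted p = 0.000983), when TBI was left out of the fit altogether (0.00111) and without the 3 libraries rich in thalamic markers (0.0154), and the adjusted p over 17 alternatives reached 0.299. C-β-LG/DSF minus TBI was -0.22 (95% interval -1.07 to 0.62, limma adjusted p = 0.812) and turned to 0.33 without TBI 3.

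Set against the oligodendrocyte markers of the same library, Enpp2 was lower in every injured library, TBI 3 included. On the log2 scale relative to Sham, Enpp2 minus the mean of the 12 oligodendrocyte markers was -0.20, 0.49 and -0.29 in Sham 1, 2 and 3. It was -1.16, -1.24 and -1.26 in TBI 1, 2 and 3, and -0.86, -1.48 and -1.51 in C-β-LG/DSF 1, 2 and 3. TBI differed from Sham by -1.22 and C-β-LG/DSF from Sham by -1.28, each without overlap (exact two-sided permutation p = 0.1 for each, the smallest possible; adjusted p = 0.2 over the 6 tests). C-β-LG/DSF differed from TBI by -0.06 (exact two-sided permutation p = 1.0). These values relative to a list were chosen after the libraries had been seen.

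**Figure D3:**
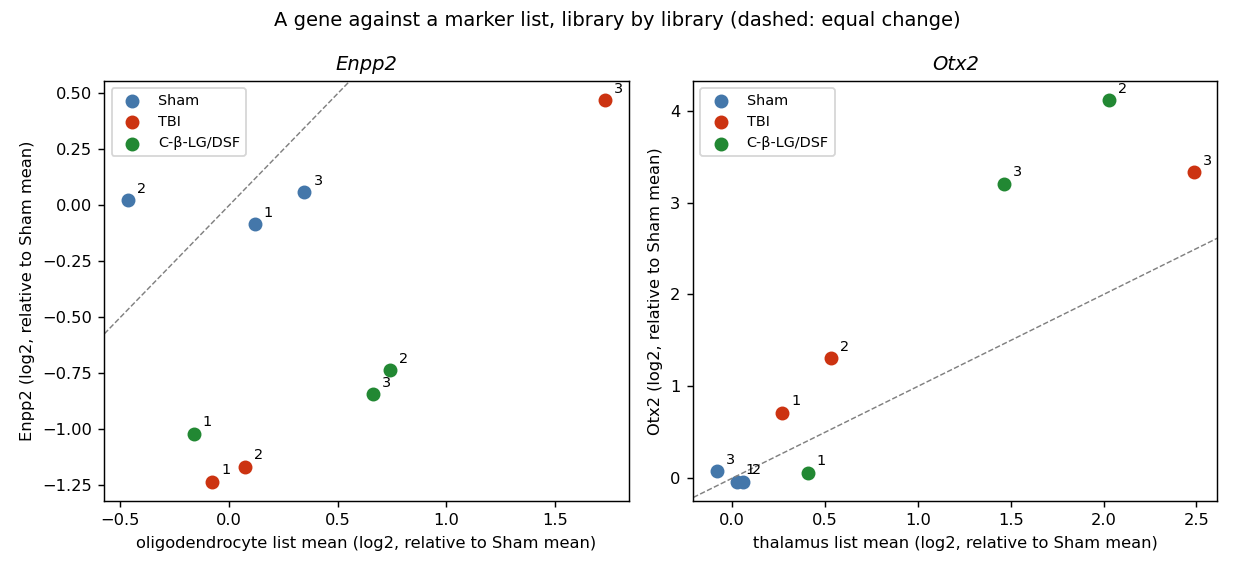
Enpp2 against the mean of 12 oligodendrocyte markers, and Otx2 against the mean of 12 thalamic markers, each as log2(FPKM + 0.5) relative to the Sham mean, with 1 point per library numbered by replicate and a dashed line of equal change. All injured libraries lie below the line for Enpp2, by 0.86 to 1.51, and the libraries highest in Otx2 are the 3 with the highest thalamic mean.

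Across the 10 genes, TBI and Sham did not overlap in 4 (Kl, Aqp1, Otx2 and Prlr, all higher in TBI; 3 of the 7 tested, where 22.6% of all genes were so, 20.4% were lower without overlap and 42.9% were one or the other). Of those tested, Aqp1 and Otx2 had passed the filter through injured libraries alone. C-β-LG/DSF and TBI did not overlap in 2, Folr1 and Aqp1, both lower in C-β-LG/DSF, where 9.28% of all genes were so, 5.97% were higher without overlap and 15.3% were one or the other. C-β-LG/DSF and Sham did not overlap in 4, with Kl, Aqp1 and Prlr higher (22.0% of all genes) and Enpp2 lower (21.0% of all genes, 43.1% in either direction). Between the treated group and TBI limma called 0 of the 7 members and 0% of all genes; at an unadjusted p under 0.05 it gave 1 member, Aqp1, and 11.8% of all genes. At that unadjusted p it gave 2 members, Kl and Aqp1, for TBI and Sham (39.1% of all genes) and 4, Kl, Enpp2, Aqp1 and Otx2, for the treated group and Sham (29.8%). With no filter on low values, the median log2 difference of all 10 members was 0.75 for TBI minus Sham, -0.33 for treated minus TBI and 0.21 for treated minus Sham, where that of the 22482 genes of the table was 0.00 in each. The median for TBI minus Sham lay between Folr1 (0.64) and Clic6 (0.86), which were 0.37 and 0.25 without TBI 3. It thus rested in part on that library. These comparisons share their groups, so they do not support one another.

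**Figure D4:**
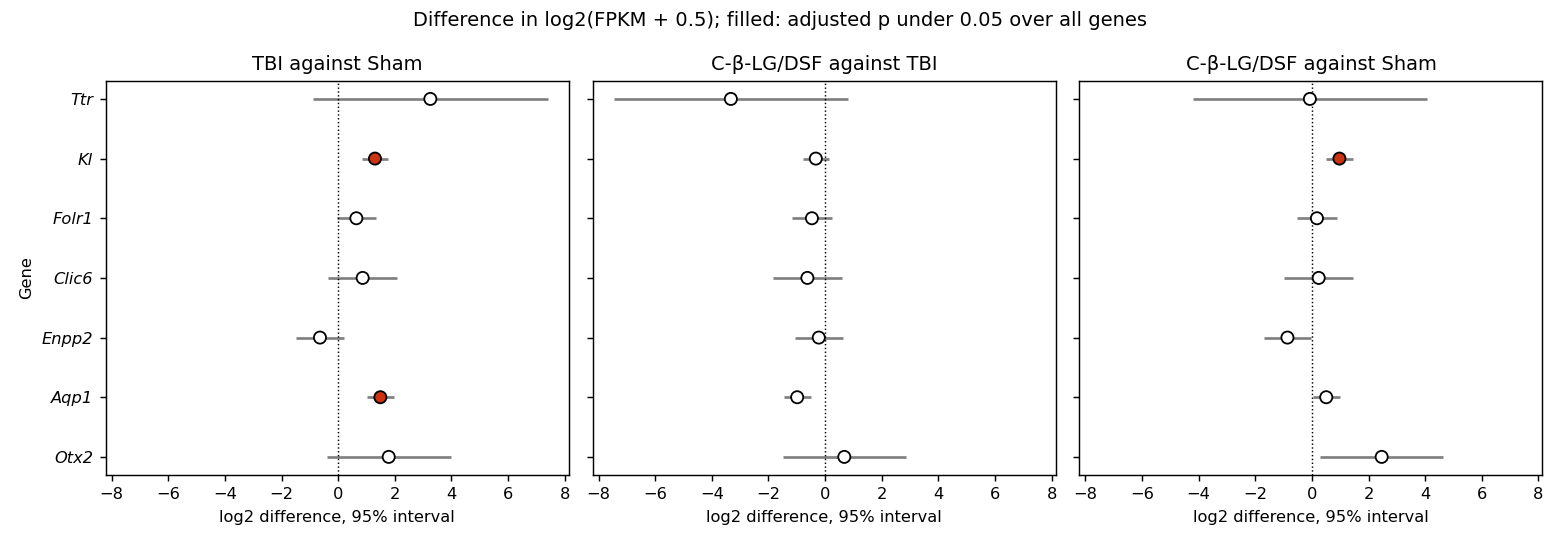
Difference in log2(FPKM + 0.5) with its 95% interval for the 7 tested genes in each comparison, filled where the adjusted p over all genes was under 0.05. Kl (1.30) and Aqp1 (1.49) are called between TBI and Sham and Kl (0.97) between the treated group and Sham; the interval of Ttr for TBI minus Sham runs from -0.89 to 7.40.

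Other genes of the choroid plexus epithelium, listed from general knowledge, were higher in part of their members. Of 40 such genes 39 were measured and 28 tested; 9 of those 28 rose and none fell in TBI against Sham, where 14.9% of all genes were called higher (7 without TBI 3, and 4 after quantile normalization), and 5 rose and none fell between Sham and the treated group, where 6.37% of all genes were called higher (7 without TBI 3; 3 rose and 1 fell after quantile normalization). Without TBI 3, 30.9% of all genes were called in either direction in TBI against Sham and 18.8% in the treated group against Sham. After quantile normalization these shares were 24.3% and 11.3%. None was called between the treated group and TBI, as for all genes. Over all 39, with no filter on low values, the median log2 difference from Sham was 0.37 in TBI and 0.36 in C-β-LG/DSF, and that of the 22482 genes of the table was 0.00 in each. In Sham 21 of the 39 already averaged 1 FPKM or more. Sostdc1, among the 9 called in TBI, and Calml4, which was not called, reached 0.5 FPKM in no Sham library. They entered the tests through injured libraries alone, so the counts of this list are a description. TBI 3 was the highest library for 21 of the 39 genes, 11 of them among the 28 tested, against 12.6% of all tested genes. Of the 10 genes under 1 FPKM in all 9 libraries, TBI 3 was highest in 9, and Steap1 was highest in TBI 1 (0.546 FPKM, with 0.395 FPKM in TBI 3).

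Named by their range over the libraries were 1500015O10Rik, Htr2c, Slc29a4 and Sostdc1. 1500015O10Rik was at 9.12 FPKM in TBI 3 and at 0.422 to 3.40 FPKM elsewhere (TBI minus Sham 1.30 on the log2 scale, limma adjusted p = 0.172). Htr2c, the serotonin 2C receptor of choroid epithelium and of neurons, was at 1.67 to 1.99 FPKM in Sham, at 2.02, 5.22 and 14.9 FPKM in TBI 1, 2 and 3, and at 9.89, 18.05 and 12.2 FPKM in C-β-LG/DSF 1, 2 and 3. It rose in the treated group, relative to Sham, by 2.55 (SE 0.53, limma adjusted p = 0.0154) and averaged 1.40 above Sham in TBI (limma adjusted p = 0.0797). Slc29a4, a monoamine transporter, averaged 2.79 ± 0.619 FPKM (SD, n = 3) in Sham. Its TBI mean was 10.1 ± 3.45 FPKM (SD, n = 3) and its treated mean 11.6 ± 2.72 FPKM (SD, n = 3). It rose by 1.66 and 1.87 on the log2 scale (limma adjusted p = 0.00242 and 0.00314). Sostdc1, a secreted antagonist of BMP and Wnt signals, was at 0.192 to 0.275 FPKM in Sham, at 0.935, 0.874 and 2.95 FPKM in TBI 1, 2 and 3, and at 1.03, 1.45 and 0.944 FPKM in C-β-LG/DSF 1, 2 and 3. It rose in TBI (1.37, SE 0.33, limma adjusted p = 0.0158) and did not pass between the treated group and Sham (1.15, limma adjusted p = 0.0510).

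Ependymal cells, the ciliated lining of the ventricles beside the choroid plexus, gave a different order of libraries from Ttr. Summed over 14 ependymal markers the FPKM ran from 11.4 to 15.1 in Sham, was 24.0, 27.4 and 57.5 in TBI 1, 2 and 3, and was 23.3, 35.04 and 25.7 in C-β-LG/DSF 1, 2 and 3. TBI 1, with 37.0 FPKM of Ttr, had the lowest sum of the TBI group, and C-β-LG/DSF 2, with 1.53 FPKM of Ttr, had the second highest of all. Of 10 tested ependymal genes 3 rose in TBI and the same number in C-β-LG/DSF, each against Sham, where 14.9% and 6.37% of all genes were called higher. After quantile normalization the second count was 1, and without TBI 3 it was 6, where 11.3% and 18.8% of all genes were called in either direction. Among the 3 first counted in each was Foxj1, named after its values were seen, the regulator of motile cilia (1.75 and 1.53, limma adjusted p = 0.00774 and 0.0236). Their part in the values of the choroid plexus genes was not tested.

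**Figure D5:**
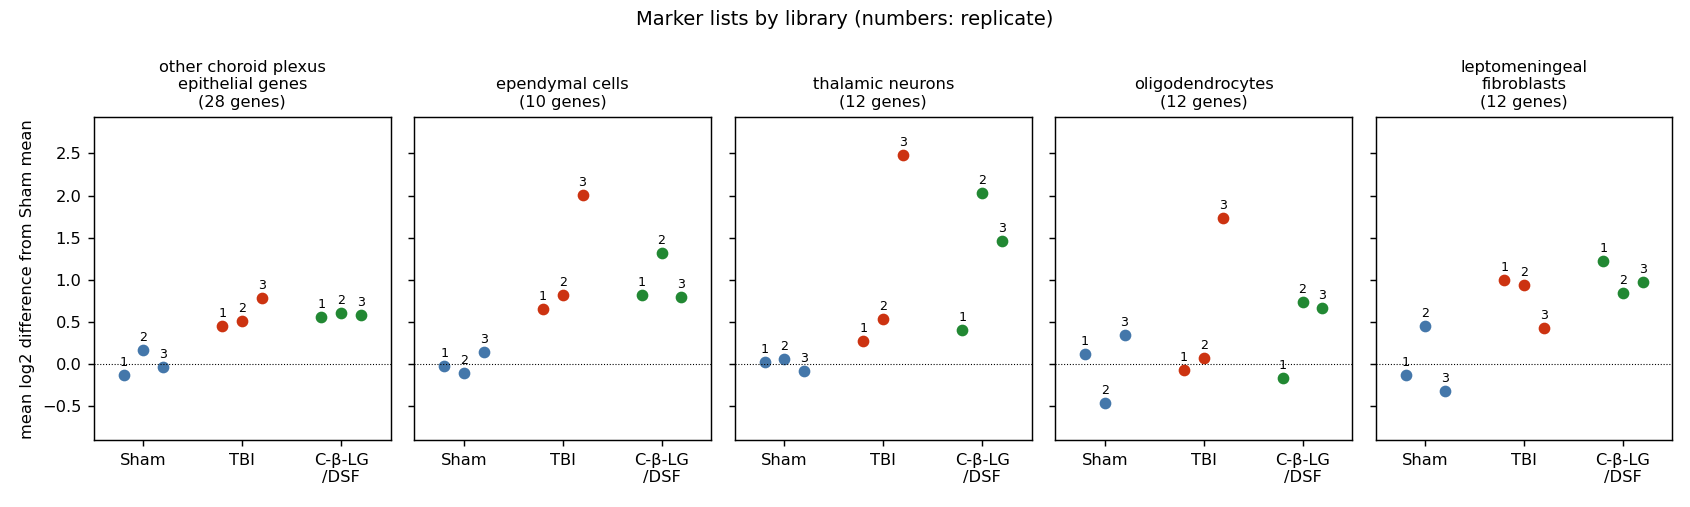
Mean log2 difference from the Sham mean over the tested genes of 5 marker lists, 1 point per library numbered by replicate. TBI 3 is highest for ependymal (2.003), thalamic (2.49) and oligodendrocyte (1.73) genes and lowest of the TBI group for leptomeningeal genes (0.43), while the injured libraries lie between 0.45 and 0.78 for the other choroid plexus genes.

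Likeness to Ttr was measured as Pearson's r over the 9 libraries on the log2 scale, as a description without a test, since all genes of a library share its dissection and depth. Among the 10 genes themselves, Clic6 (r = 0.92), Slc4a5 (0.90) and F5 (0.81) were most like Ttr, followed by Folr1 (0.66), Aqp1 (0.63), Kl (0.56), Prlr (0.52), Enpp2 (0.36) and Otx2 (0.27). Without TBI 3 and TBI 1, the libraries farthest from the median of Ttr, r was 0.80 for Clic6, 0.06 for Slc4a5 and -0.23 for F5, so the likeness of the last 2 rests on those libraries. Of 13152 other genes with a mean of 1 FPKM or more, the 10 named genes most like Ttr, after 1 predicted gene was passed over, were Fam84b (0.94), Klf8 (0.92), Itga9 (0.92), Tmem128 (0.91), Nup160 (0.90), Zfp366 (0.90), Tdrd7 (0.90), Fam129a (0.89), Abhd5 (0.89) and Nkd1 (0.89). Their r over the 7 libraries without TBI 3 and TBI 1 ran from 0.21 in Zfp366 to 0.87 in Tdrd7. Klf8, for instance, stood at 2.79 FPKM in Sham 3 and 5.07 FPKM in TBI 3 and at 0.713 to 1.84 FPKM in the other libraries.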

How the data were processed

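Per the labels' protocols, Trizol was used to extract RNA of mouse brain pieces, and a stranded total RNA kit to make the libraries. Per the submitters' processing notes the tools were HISAT2 2.1.0, an aligner, and Cufflinks 2.2.1, a quantifier. In the deposited table the authors give FPKM for each gene and library with the bounds of an interval around it, per the file headers; the sources used here give no fragment counts, genome build or annotation. In low genes no single ratio between libraries held more than 3.24% of values, so depth was not recovered from them. Positions of 7 of the 10 genes equal those of GENCODE M21 on GRCm38. Starts were moved to count from 1. 6 of the 10 genes overlap another annotated gene, and whether strand was used in counting is not given. 1 emptied entry was dropped, and 26 symbols that had become dates were restored.

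With limma 3.58.1 (R 4.3.3), log2(FPKM + 0.5) was fitted with 1 mean per group over all 9 libraries, 6 residual degrees of freedom and a variance trend, for genes at 0.5 FPKM or more in at least 3 libraries. Tests were two-sided and adjusted by Benjamini-Hochberg within each comparison, with calls at 0.05. Exact permutation tests were run in R on the FPKM of single genes, and in scipy on the log2 values of a gene relative to a list. The labels give no batch. The procedure was tested on simulated data. Alternatives were pseudocounts of 1 and 0.1, no filter, quantile normalization, equal totals, only the groups compared, the replicate number as a block, each library left out, and, added after the values were seen, 3 libraries left out together. Members and lists were chosen with earlier results of these data known. All 10 members are named; the rule for other genes takes the 10 most like Ttr, passing over predicted genes (1), and the 4 widest-ranging of the other choroid plexus genes, and any further gene was named after its values were seen.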

Additional observations from a re-analysis of the deposited data

How the results depend on the processing

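The calls of Kl and Aqp1 in TBI against Sham held in all 17 alternatives, and 80 of 102 alternative counts stayed within 1.5 times the reported count. Of 347 alternative values of single genes, 325 kept their direction and their side of the threshold. Of 72 alternatives of a gene relative to a list, which had no threshold, 67 moved by less than the spread between replicates, 3 of Otx2 moved by more with another pseudocount (to 0.25, 2.17 and 2.39), and 2 turned. Leaving out a library of the group not compared cannot change such a difference, so part of those 67 was fixed in advance. Part of the 80 counts kept were 0 on both sides, in C-β-LG/DSF against TBI. Left out in turn, the libraries moved the genes called in TBI against Sham from 3836 to between 2241 and 4377, those in C-β-LG/DSF against TBI from 0 to between 0 and 2, those in C-β-LG/DSF against Sham from 1895 to between 665 and 2935, and the members called in that comparison from 1 to between 0 and 2. In C-β-LG/DSF against TBI 2 genes were called with no filter and 1 without the 3 libraries rich in thalamic markers. For the treated group and Sham the genes called were 337 without those libraries and 3412 when only these groups were fitted, with 2 members called; after quantile normalization 0 members were called. The cause was not tested. For low genes the size followed the pseudocount: with 1 and 0.1, TBI minus Sham was 0.996 and 1.74 for Kl, 0.59 and 1.70 for Clic6 and 0.44 and 1.07 for Folr1.

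The direction turned in these cases, none of them called. Enpp2 in C-β-LG/DSF against TBI ran from -0.52 to 0.33 with libraries left out and was 0.18 without the 3 libraries. Relative to the oligodendrocyte list it ran from -0.27 to 0.0521. Otx2 in that comparison ran from -0.15 to 1.88. In C-β-LG/DSF against Sham, Ttr ran from -0.96 to 0.94 and was 0.32 with a pseudocount of 0.1 and 0.0295 without the 3 libraries, Folr1 ran from -0.0446 to 0.45 and was -0.20 after quantile normalization, and Clic6 was -0.13 after quantile normalization. With the replicate block, 3519, 0 and 1627 genes and 2, 0 and 1 members were called in the 3 comparisons, and no call of a member changed; same-numbered libraries correlated in their deviations with r from -0.09 to 0.33, so the numbers were not taken to pair them. Quantile normalization split the genes called in TBI against Sham into 1581 higher and 1895 lower, where the reported split was 2127 and 1709. Depth is unknown, so no counting error was worked out from fragment counts, and only the authors' intervals could be set beside the values.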

Other observations

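Markers of the tissue around the epithelium were also examined, and the genes named here were picked after their values were seen. Of 6 genes of fenestrated capillaries and stroma, 5 were tested and 4 rose in TBI against Sham (3 without TBI 3), where 14.9% of all genes were called higher. Without TBI 3, 30.9% of all genes were called in either direction. Aplnr, the apelin receptor, was at 0.282 to 0.457 FPKM in Sham, at 6.75, 1.19 and 2.28 FPKM in TBI 1, 2 and 3, and at 0.974 to 1.31 FPKM in C-β-LG/DSF (TBI minus Sham 1.88 on the log2 scale, SE 0.43, limma adjusted p = 0.0129). Aplnr, among the 4 called, reached 0.5 FPKM in no Sham library and entered the tests through injured libraries alone, so that count is a description. Plvap, the diaphragm protein of fenestrated vessels, overlapped between all groups, at 5.49 to 6.23 FPKM in Sham and 3.75 to 7.08 FPKM in TBI, and was not raised in TBI 3 (5.20 FPKM). Of 12 leptomeningeal fibroblast genes 4 rose in TBI and 6 in C-β-LG/DSF, each against Sham, where 14.9% and 6.37% of all genes were called higher. The 4 in TBI were the matrix genes Dcn, Lum, Col1a1 and Col1a2. In TBI 9 of the 12 averaged above Sham on the log2 scale. Ptgds (-0.38), Nov (-0.13) and Slc22a6 (-0.08) averaged below it and were not called. Dcn, the matrix proteoglycan decorin, was at 4.44 to 9.48 FPKM in Sham, 15.3 to 30.3 FPKM in TBI and 22.5 to 33.2 FPKM in C-β-LG/DSF, with differences from Sham of 1.68 and 1.99 (limma adjusted p = 0.00405 and 0.00441).

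Among the genes whose level in TBI 3 most exceeded that of any other library, Pmch, which encodes a neuropeptide of hypothalamic neurons, came between Ttr and Clic6 at rank 2 (9.62 FPKM against at most 1.44 FPKM), and Gpr151, a receptor of habenular neurons, at rank 4 (8.08 FPKM against at most 2.30 FPKM). Both were named after their values were seen.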
